A study of Mus musculus with 6 samples.

Results

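The genes of the synaptic vesicle cycle described here are 39 genes for proteins of the vesicle itself, of the machinery that fuses it with the membrane, of the active zone and of endocytosis. They were chosen by name, and all 39 were found by gene symbol among the 27884 genes of the deposited table and passed the filter on low counts that left 18640 genes to test. The tissue was the preoptic area (POA), a part of the hypothalamus, of female NuTRAP::Pnoc-Cre mice aged 17 to 18 weeks, in which cells that express Cre from the Pnoc locus carry an EGFP tag on their ribosomes. In each of 3 replicates, tissue of 3 animals was pooled, ribosomes were purified with an antibody against GFP (IP), and total RNA of the same pool was sequenced as input. All 6 libraries thus share the genotype, sex, age and tissue, and no treatment is named. Replicates are pools, so the spread reported is that between pools, and an IP from mice without Cre was not analysed here. IP differs from input both in the cells it samples and in holding ribosome-bound rather than total RNA, and these cannot be told apart by the design.

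A neuron fills its vesicles with transmitter by means of a proton gradient, tethers them by synapsins, docks and primes them at the active zone, and fuses them when calcium binds a synaptotagmin and the SNARE proteins on vesicle and membrane zip together. NSF and its adaptors then take the SNARE complexes apart, and clathrin, dynamin and their partners retrieve the membrane. Many of these proteins, though not all, are found in nearly all neurons and are scarce in glia. Paralogs such as SYT1 and SYT2 or VAMP1 and VAMP2 are used to different degrees by different neurons.

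Levels are given as CPM, the count of a gene scaled to the TMM-adjusted size of its library. Total counts ran from 48204567 to 53056642 per library. Pnoc, the driver gene, stood at 47.7, 43.1 and 41.1 CPM in IP replicates 1, 2 and 3 and 7.51, 11 and 13.2 CPM in the inputs of the same numbers, so every IP library was above every input library (log2 2.06 ± 0.22 SE, adjusted p = 0.000472). All 10 astrocyte, 10 oligodendrocyte and 10 microglia markers were called lower in IP, as were 6 of 7 endothelial and 3 of 5 ependymal markers. The summed level of the oligodendrocyte markers ran from 697 to 1025 CPM in IP and from 5287 to 6728 CPM in input, that of the astrocyte markers from 825 to 1026 CPM against 3218 to 3874 CPM, and that of the microglia markers from 19.9 to 31.3 CPM against 196 to 237 CPM. The endothelial markers summed to 3.99 to 4.61 CPM in IP and 16.9 to 24.5 CPM in input, and the ependymal markers to 7.48 to 8.52 CPM against 18.8 to 33.8 CPM. None of these markers was at 0 in all IP libraries. In bulk RNA, fewer cells of a type and less RNA per cell cannot be told apart, and the part of the lower glial share in the results below was not tested.

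Of the 39 vesicle cycle genes, 11 were called higher in IP and 2 lower at an adjusted p under 0.05 by edgeR's quasi-likelihood test, which is 28.2% and 5.13% of them. Over all genes tested, 12.9% were called higher and 17.1% lower. The higher genes were Syn2, Syp, Sv2a, Sv2c, Syngr1, Syt2, Snap25, Vamp2, Cplx1, Rab3a and Rab3c. The lower genes were Syn1 and Pclo. The median log2 fold change of the 39 was 0.32, against -0.07 over all genes tested, and 28 of the 39 were above 0, against 46.8% of all genes. The changes were small: among the 11 called higher, the fold ran from 1.38 to 2.47, and only Syt2 and Rab3a reached 2. In 20 genes all 3 IP values lay above all 3 input values and in 3 genes below, while 16 genes overlapped. Over all genes tested the groups stood apart with IP higher in 21.7% and with IP lower in 26%. With library totals as the only scaling, 8 of the 39 were called higher and 2 lower, against 9.3% and 19.7% of all genes, and the median of all genes moved to -0.17 and that of the 39 to 0.22. The calls of Syp, Sv2a, Syngr1, Syt2, Vamp2 and Rab3a held with each single library left out. The count of higher genes fell to 7 without IP replicate 2 and to 6 without IP replicate 3 (7.5% and 7.21% of all genes). Neither left a lower call among the 39, while 11.3% and 11.2% of all genes were called lower. With the replicate as a block 13 were higher and 1 lower (15.2% and 19.4% of all genes), with upper-quartile factors 10 and 1 (12% and 17.4%), with no low-count filter 13 and 1 (8.39% and 11.4%), and without both libraries of replicate 2 the counts were 9 and 1 (7.9% and 11%). Without both libraries of replicate 3 only Syt2 was called, while over all genes the percentages fell to 0.705% higher and 3.93% lower.

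**Figure D1:**
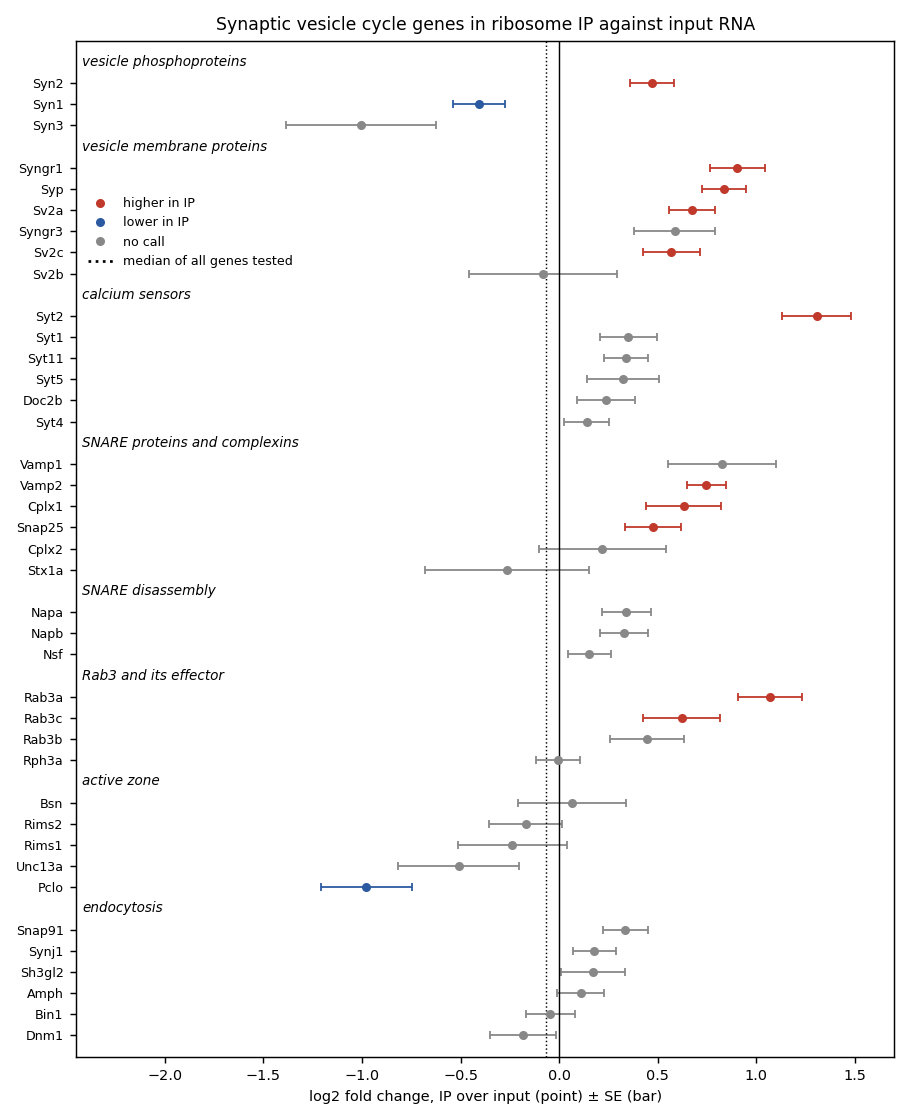
Log2 fold change of each of the 39 vesicle cycle genes, IP over input, with its SE as a bar, grouped by role; the dotted line is the median of all genes tested (-0.07). Syt2 and Rab3a lie farthest to the right at 1.31 and 1.07, and Syn3 and Pclo farthest to the left, Pclo at -0.98.

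The windows of 250 bases before the RefSeq start are shown for the called genes with the smallest adjusted p in each direction among those with a single RefSeq entry, Syp and Syngr1 (higher) and Pclo and Syn1 (lower), so that the sequences of genes that moved in opposite directions can be read side by side. They are given 5′ to 3′ on the gene's strand, from RefSeq's GRCm38.p6, which is not the mm39 build of the count table. Capitals mark GGGCGG (the GC box bound by Sp1), TGACGTCA (the cyclic AMP response element, CRE) and TTCAGCACC (the left part of RE1, the element bound by the repressor REST).
Syp, chrX:7638330-7638579, + strand: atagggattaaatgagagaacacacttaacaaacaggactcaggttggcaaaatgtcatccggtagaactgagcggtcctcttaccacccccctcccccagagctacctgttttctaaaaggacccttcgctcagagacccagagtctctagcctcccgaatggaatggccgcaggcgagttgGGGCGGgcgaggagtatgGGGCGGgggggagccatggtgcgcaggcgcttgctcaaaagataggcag
Syngr1, chr15:80091084-80091333, + strand: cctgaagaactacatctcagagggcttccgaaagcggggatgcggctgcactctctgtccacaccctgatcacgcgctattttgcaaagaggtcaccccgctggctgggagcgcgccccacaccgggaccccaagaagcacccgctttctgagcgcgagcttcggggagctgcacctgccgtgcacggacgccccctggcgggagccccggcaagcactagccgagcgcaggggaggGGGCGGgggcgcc
Pclo, chr5:14514668-14514917, + strand: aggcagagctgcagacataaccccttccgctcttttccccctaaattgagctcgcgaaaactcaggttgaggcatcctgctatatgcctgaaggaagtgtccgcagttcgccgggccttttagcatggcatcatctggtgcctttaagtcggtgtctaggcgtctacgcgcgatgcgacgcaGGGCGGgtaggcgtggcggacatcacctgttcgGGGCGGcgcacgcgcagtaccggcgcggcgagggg
Syn1, chrX:20920919-20921168, - strand: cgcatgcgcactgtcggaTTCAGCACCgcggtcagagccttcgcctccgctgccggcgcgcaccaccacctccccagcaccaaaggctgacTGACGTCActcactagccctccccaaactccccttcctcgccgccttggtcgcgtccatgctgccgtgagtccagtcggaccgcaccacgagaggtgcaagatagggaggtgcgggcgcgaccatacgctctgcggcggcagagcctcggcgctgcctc
Each motif was searched on both strands, so CCGCCC and GGTGCTGAA also counted, while the CRE reads the same on both. The window of Syp has 2 GC boxes, that of Pclo 2 and that of Syngr1 1. The window of Syn1 has none, but holds the RE1 part, whose first base lies 232 bases before the start, and a CRE, 159 bases before it. Of all 32851 mouse windows of this length 32.7% hold a GC box, 1.55% a CRE and 0.301% the RE1 part. RefSeq entries matched 30 of the 39 genes, with 40 windows in all, and Syn3, Syngr3, Syt4, Syt5, Doc2b, Snap25, Vamp2, Rims2 and Bin1 were not matched. A GC box stood in 23 of the 40 windows (57.5%, in 22 genes), a CRE in those of Syn1 and Sh3gl2, and the RE1 part in that of Syn1. The median GC content was 61.2% in the 40 windows and 52.4% in all windows. A GC box thus stood before genes called higher and before Pclo, which was called lower.

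The 3 synapsins, the phosphoproteins that hold vesicles in a reserve cluster, did not move together: Syn2 rose, Syn1 fell, and Syn3 was not called. Syn2 (chromosome 6, 115111863 to 115258967, mm39) stood at 723, 665 and 765 CPM in IP replicates 1, 2 and 3 and 518, 491 and 547 CPM in the inputs of the same numbers. Every IP value lay above every input value (1.38-fold, log2 0.47 ± 0.11 SE, adjusted p = 0.0149). The call was lost without IP replicate 1 (adjusted p = 0.0527) or IP replicate 3 (0.0579). Syn1 (chromosome X, 20726750 to 20787243), the most abundant synapsin per kb of gene length, stood at 397, 400 and 434 CPM in IP replicates 1, 2 and 3 and 517, 631 and 481 CPM in the inputs of the same numbers. All 3 IP values lay below all 3 input values, input being 1.32 times IP (log2 -0.41 ± 0.13 SE, adjusted p = 0.0485). This call was at the threshold. With the replicate as a block the adjusted p was 0.051, and over all settings tried it ran from 0.0193 to 0.32. It was also lost without IP replicate 1, 2 or 3 (adjusted p = 0.145, 0.143 and 0.0966) and without input replicate 3 (0.0957). Without input replicate 2 the log2 fold change was -0.24 (adjusted p = 0.163). Syn3 was scarce, at 2.79, 2.78 and 2.38 CPM in IP against 7.94, 2.9 and 5.1 CPM in input. The groups did not overlap, but only narrowly, since input replicate 2 at 2.9 CPM was next to the highest IP value of 2.79 CPM (log2 -1.004 ± 0.38 SE, adjusted p = 0.0797).

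Within a library the ratio of 2 genes does not depend on how libraries are scaled to each other. Per kb, Syn2 was at 0.45 of the Syn1 level in input (geometric mean of 3 libraries) and at 0.82 in IP. The log2 ratio of Syn2 to Syn1 was -1.09, -1.45 and -0.91 in input replicates 1, 2 and 3 and -0.23, -0.36 and -0.27 in IP, a difference of 0.87. The ratio was higher in IP in every replicate, and the exact two-sided permutation test gave p = 0.10, the smallest that 3 against 3 libraries allow (adjusted p = 0.45 over the 18 ratios compared). Syn1 thus remained the more abundant of the pair per kb in every library.

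Most genes for integral membrane proteins of the vesicle rose. Of the 6, Syp, Sv2a, Sv2c and Syngr1 were called higher, none was called lower, and the median log2 fold change was 0.63. Syp (chromosome X, 7504710 to 7519495), which encodes synaptophysin, the most abundant of the group per kb in input, stood at 868, 961 and 833 CPM in IP replicates 1, 2 and 3 and 497, 524 and 471 CPM in the inputs of the same numbers. Every IP value lay well above every input value (1.78-fold, log2 0.84 ± 0.11 SE, adjusted p = 0.00142). Syngr1 (chromosome 15, 79975535 to 80003702), for synaptogyrin 1, a relative of synaptophysin, showed the same order of groups with 687, 824 and 652 CPM in IP against 397, 423 and 336 CPM in input (1.87-fold, log2 0.90 ± 0.14 SE, adjusted p = 0.00265). Its paralog Syngr3 stood at 236, 273 and 248 CPM in IP against 126, 225 and 153 CPM in input. Here too the groups stood apart, but input replicate 2 at 225 CPM was close to the lowest IP value of 236 CPM, and the gene was not called (log2 0.59 ± 0.21 SE, adjusted p = 0.0622). It was called with the replicate as a block (adjusted p = 0.0101), and over all settings its adjusted p ran from 0.00744 to 0.32.

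The SV2 family, vesicle glycoproteins of which SV2A is the binding site of levetiracetam, divided by level and by library. Sv2a (chromosome 3, 96088467 to 96102837) stood at 665, 712 and 631 CPM in IP replicates 1, 2 and 3 and 378, 434 and 445 CPM in the inputs of the same numbers, with no overlap of the groups (1.60-fold, log2 0.68 ± 0.12 SE, adjusted p = 0.00413). Sv2c (chromosome 13, 96091102 to 96269085) stood at 94.9, 88.9 and 91.8 CPM in IP against 73.1, 58.5 and 54.2 CPM in input. The 3 IP values of Sv2c differed by little and lay above all input values (1.48-fold, log2 0.57 ± 0.14 SE, adjusted p = 0.0195). Its call was lost without IP replicate 1, 2 or 3 (adjusted p = 0.0619, 0.053 and 0.0612) or without input replicate 3 (0.0593), with the log2 fold change between 0.53 and 0.71 over the single libraries left out. Per kb, Sv2a was 14.2 times Sv2c in input (16.3 times without input replicate 1) and 15.2 times in IP. Sv2b had no common direction, at 75.5, 119 and 103 CPM in IP against 177, 76 and 61.2 CPM in input. Input replicate 1 was above all other libraries, and the gene was not called (log2 -0.08 ± 0.37 SE, adjusted p = 0.894). Without input replicate 1 its log2 fold change was 0.54 (adjusted p = 0.0901), and without both libraries of replicate 1 it was called higher (0.70, adjusted p = 0.0164).

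Among the calcium sensors Syt2 was called higher and the other 5 were not called, with a median log2 fold change of 0.33 over the 6 and all 6 above 0. Synaptotagmins 1 and 2 are the fast calcium sensors of release, and DOC2B is a high-affinity sensor linked to spontaneous release. Syt2 (chromosome 1, 134574415 to 134690331) stood at 135, 121 and 87.1 CPM in IP replicates 1, 2 and 3 and 48.1, 46.7 and 44 CPM in the inputs of the same numbers. The inputs were nearly equal, and the lowest IP value was still well above them (2.47-fold, log2 1.31 ± 0.18 SE, adjusted p = 0.00143). This was the largest fold of the 39 genes, and the call held under all 18 other settings (adjusted p from 1.46e-10 to 0.0222). Syt1 stood at 947, 1071 and 1016 CPM in IP against 904, 834 and 641 CPM in input, with IP above input throughout but no call (log2 0.35 ± 0.15 SE, adjusted p = 0.104). Per kb, Syt1 was the more abundant: it was 15.5 times Syt2 in input and 8.22 times in IP. The log2 ratio of Syt2 to Syt1 was -4.11, -4.03 and -3.74 in the inputs and -2.68, -3.02 and -3.42 in IP, higher in IP in every replicate by a mean of 0.92 (exact permutation p = 0.10, adjusted p = 0.45).

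Syt11, the most abundant of these genes per kb in input, stood at 685, 830 and 772 CPM in IP replicates 1, 2 and 3 and 615, 591 and 603 CPM in the inputs of the same numbers. Its groups stood apart and its adjusted p was just above the threshold (log2 0.34 ± 0.11 SE, adjusted p = 0.054). SYT11 and SYT4 are placed here as members of the family and do not bind calcium in the way SYT1 does. Syt4 stood at 194, 212 and 218 CPM in IP against 187, 199 and 181 CPM in input, with overlapping groups and no call (log2 0.14 ± 0.11 SE, adjusted p = 0.397). The log2 ratio of Syt4 to Syt11 was lower in IP than in input in all 3 replicates, by a mean of 0.20 in size (-1.45 ± 0.08 SD in IP and -1.25 ± 0.09 in input, n = 3, exact permutation p = 0.10). Syt5 (0.32, adjusted p = 0.222) and Doc2b (0.24, adjusted p = 0.264) were not called.

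Among the SNARE proteins and complexins, which form and clamp the fusion complex, 3 of 6 were called higher and none lower (median log2 fold change 0.55). Snap25 (chromosome 2, 136555373 to 136624348) encodes the plasma membrane SNARE that contributes a pair of helices to the complex. Per kb of the deposited gene length, Snap25 was the most abundant of the 39 genes in input. It stood at 4191, 5118 and 4683 CPM in IP replicates 1, 2 and 3 and 3385, 3845 and 2833 CPM in the inputs of the same numbers. IP lay above input in every library (1.39-fold, log2 0.48 ± 0.14 SE, adjusted p = 0.0344), but the call was lost without IP replicate 2 or 3 (adjusted p = 0.11 and 0.0849) or input replicate 3 (0.122), and with library totals as the only scaling (0.0686). Vamp2 (chromosome 11, 68979316 to 68983210), for the main vesicle SNARE, stood at 2310, 2421 and 2355 CPM in IP replicates 1, 2 and 3 and 1370, 1403 and 1451 CPM in the inputs of the same numbers. The libraries of each group were close to each other and the groups far apart (1.68-fold, log2 0.75 ± 0.10 SE, adjusted p = 0.00127). Vamp1 stood at 479, 673 and 499 CPM in IP against 197, 438 and 296 CPM in input. Its IP values were above its input values and its log2 fold change was larger than that of Vamp2, but input varied more and the gene was not called (log2 0.83 ± 0.27 SE, adjusted p = 0.0524). With the replicate as a block it was called (adjusted p = 0.00171), with a range over all settings from 0.000856 to 0.244. Per kb, Vamp2 was 12.8 times Vamp1 in input (10.6 times without input replicate 1) and 11.6 times in IP, and the ratio did not move in a common direction over the replicates.

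Stx1a, for the syntaxin that partners SNAP25, stood at 89.9, 75.7 and 68.2 CPM in IP against 170, 50.3 and 60.1 CPM in input. Input replicate 1 was more than 2 times any other input, the groups overlapped, and the gene was not called (log2 -0.26 ± 0.42 SE, adjusted p = 0.671). Without that library its log2 fold change was 0.50 (adjusted p = 0.0501). Cplx1 (chromosome 5, 108666420 to 108697890), for the complexin that clamps and promotes fusion, stood at 1342, 1901 and 1625 CPM in IP replicates 1, 2 and 3 and 840, 1296 and 1009 CPM in the inputs of the same numbers. The lowest IP value, 1342 CPM, lay just above the highest input value, 1296 CPM (1.55-fold, log2 0.63 ± 0.19 SE, adjusted p = 0.0357). The call was lost without IP replicate 2 or 3 (adjusted p = 0.123 and 0.0928), without input replicate 1 or 3 (0.0672 and 0.121), and with library totals as the only scaling (0.0641). Cplx2 stood at 1394, 830 and 990 CPM in IP against 1437, 637 and 689 CPM in input. Replicate 1 was highest in both groups, which overlapped (log2 0.22 ± 0.32 SE, adjusted p = 0.651). Without input replicate 1 Cplx2 was called higher (log2 0.70, adjusted p = 0.0375), and over all settings its adjusted p ran from 0.0375 to 0.984. Per kb, Cplx1 was 2.71 times Cplx2 in input and 3.46 times in IP. Without input replicate 1 the input value was 3.89 times, so the direction between the groups turned on that library.

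The genes that take SNARE complexes apart showed small positive values, and none of the 3 was called. Nsf, for the ATPase, stood at 1013, 1152 and 999 CPM in IP against 914, 996 and 938 CPM in input. The groups stood apart by a narrow margin, 999 against 996 CPM (log2 0.15 ± 0.11 SE, adjusted p = 0.334). Napa and Napb, for the alpha and beta SNAP adaptors, had log2 fold changes of 0.34 and 0.33 with adjusted p = 0.0708 and 0.0748. In both genes every IP value was above every input value. The ratio of Napb to Napa was 1.25 in input (1.13 without input replicate 1) and 1.24 in IP per kb.

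Of the Rab3 GTPases, which mark vesicles for docking, Rab3a and Rab3c were called higher, Rab3b was not, and neither was Rph3a, for the Rab3 effector rabphilin (median log2 fold change of the 4, 0.53). Rab3a (chromosome 8, 71207328 to 71211323) stood at 1606, 1777 and 1674 CPM in IP replicates 1, 2 and 3 and 645, 991 and 773 CPM in the inputs of the same numbers. The lowest IP value was far above the highest input value (2.10-fold, log2 1.07 ± 0.16 SE, adjusted p = 0.00233). Per kb its level was 758 in IP and 361 in input CPM, and by the deposited gene lengths no other of the 39 genes was higher in IP. Rab3c (chromosome 13, 110190721 to 110417530) stood at 922, 1319 and 1275 CPM in IP replicates 1, 2 and 3 and 687, 638 and 962 CPM in the inputs of the same numbers. The groups overlapped, since input replicate 3 at 962 CPM was above IP replicate 1 at 922 CPM (1.54-fold, log2 0.62 ± 0.20 SE, adjusted p = 0.044). It lost the call without IP replicate 2 or 3 (adjusted p = 0.137 and 0.133), without input replicate 1 or 2 (0.0913 and 0.11), with upper-quartile factors (0.054) and with library totals (0.0889). Rab3b stood at 172, 118 and 126 CPM in IP against 87.2, 97.3 and 121 CPM in input, with IP replicate 2 at 118 CPM below input replicate 3 at 121 CPM (log2 0.45 ± 0.19 SE, adjusted p = 0.109). Rph3a differed least of the 39 genes, at 525, 540 and 537 CPM in IP against 572, 552 and 482 CPM in input (log2 -0.00 ± 0.11 SE, adjusted p = 0.981). Per kb, Rab3a was 12.4 times Rab3b in input and 19.5 times in IP, and the ratio of Rab3b to Rab3a was lower in IP within each replicate, with overlapping groups (exact permutation p = 0.20).

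**Figure D2:**
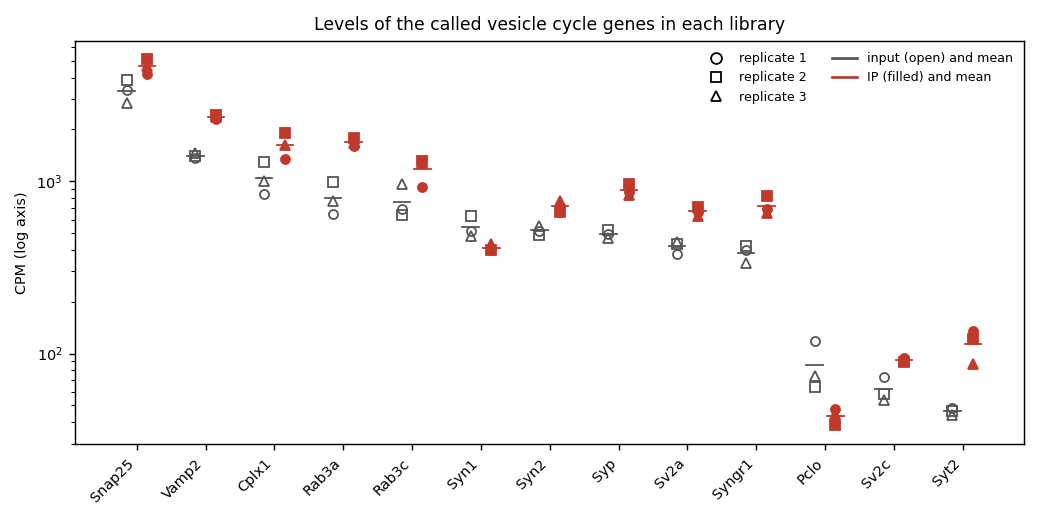
Level in CPM on a log axis of the 13 called genes in each library, input open and IP filled, with lines at the group means; symbols give the replicate. Vamp2, Syp, Sv2a and Rab3a show IP values above all inputs, Rab3c shows the overlap of input replicate 3 with IP replicate 1, and Syn1 and Pclo show IP below input.

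None of the 5 active zone genes was called higher, Pclo was called lower, and the median log2 fold change was -0.24. That median was -0.019 without input replicate 1, and -0.024 with the length correction and all libraries kept. With the replicate block alone it was -0.19, and with the correction and the block 0.03. The parts of that library and of gene length were not tested. Pclo (chromosome 5, 14564932 to 14913473), for piccolo, a giant scaffold that ties vesicles to the active zone, stood at 47.8, 38.3 and 44.7 CPM in IP replicates 1, 2 and 3 and 119, 64.4 and 74.6 CPM in the inputs of the same numbers. All IP values lay below all input values, the mean of input being 1.97 times IP by the fit (log2 -0.98 ± 0.23 SE, adjusted p = 0.0144). The call was lost without IP replicate 2 (adjusted p = 0.0597) or IP replicate 3 (0.054). It held without input replicate 1, the highest library, with a log2 fold change of -0.67 (adjusted p = 0.0115). Bsn, for bassoon, the other giant scaffold, stood at 88.9, 104 and 81.6 CPM in IP against 131, 59.5 and 72.6 CPM in input, with overlapping groups (log2 0.06 ± 0.27 SE, adjusted p = 0.884). The log2 ratio of Pclo to Bsn per kb was -0.63, -0.38 and -0.45 in the inputs and -1.39, -1.94 and -1.36 in IP. It was lower in IP in every replicate by a mean of 1.07 in size, and the groups did not overlap (exact permutation p = 0.10, adjusted p = 0.45). Per kb, Bsn was 1.40 times Pclo in input and 2.96 times in IP.

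Rims1, for the RIM1 scaffold that recruits calcium channels and the most abundant active zone gene of the 5 per kb, stood at 124, 142 and 139 CPM in IP against 244, 115 and 120 CPM in input (log2 -0.24 ± 0.28 SE, adjusted p = 0.556). Input replicate 1 was above the other 5 libraries, so the groups overlapped, while the other inputs lay below every IP value. Without input replicate 1 the log2 fold change was 0.21 (adjusted p = 0.235). Rims2 (-0.17, adjusted p = 0.533) was not called. Unc13a, for the priming factor MUNC13-1, stood at 77.1, 76.5 and 59.6 CPM in IP against 159, 67.7 and 77 CPM in input. Its input replicate 1 was again the highest library, and the groups overlapped (log2 -0.51 ± 0.31 SE, adjusted p = 0.248). Without that library the log2 fold change was -0.02 (adjusted p = 0.947).

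None of the 6 endocytosis genes was called, and their median log2 fold change was 0.14. Dnm1, for the dynamin that pinches vesicles off and the most abundant of these genes per kb, stood at 861, 930 and 621 CPM in IP against 1008, 920 and 811 CPM in input (log2 -0.18 ± 0.17 SE, adjusted p = 0.451). Its groups overlapped. Snap91, for the clathrin adaptor AP180, stood at 483, 514 and 467 CPM in IP against 420, 358 and 382 CPM in input. All IP values were above all inputs, with an adjusted p just above the threshold (log2 0.34 ± 0.11 SE, adjusted p = 0.0555). Synj1, for synaptojanin, a phosphatase that takes part in shedding the clathrin coat, also had groups that stood apart (0.18, adjusted p = 0.26). Sh3gl2 for endophilin A1 (0.17, adjusted p = 0.467), Amph for amphiphysin (0.11, adjusted p = 0.534) and Bin1 for its paralog (-0.04, adjusted p = 0.82) had overlapping groups.

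Of the 26 genes without a call, 7 had an adjusted p under 0.1, and 22 of the 39 genes had an unadjusted p under 0.05. The shares of all genes at these cutoffs are not given here, so neither count is set against a background. The authors' deposited table, made with DESeq2, calls 15 of the 39 genes higher and 1 lower, Pclo. The shares of all genes called in the authors' deposited table are not given here. The authors' calls were the same as those given here for 34 genes and included all 11 higher ones. They added Syngr3, Syt11, Vamp1 and Snap91 and left out Syn1 (adjusted p = 0.0681 in the authors' deposited table). DESeq2 run on the tested genes called 17 higher and 3 lower, against 16.4% and 19.7% of all genes.

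The replicates differed in how many genes were lower in IP. The log2 ratio of IP to input within a replicate (after adding 0.05 CPM) was above 0 in all 3 replicates for 23 of the 39 genes, below 0 in all 3 for Syn1, Syn3 and Pclo, and of mixed sign for 13. In replicate 1, 14 genes were below 0, against 6 in each of replicates 2 and 3. The median ratio over the 39 was 0.14 in replicate 1, 0.38 in replicate 2 and 0.36 in replicate 3. The same counts and medians over all genes tested are not given here. Whether this difference between replicates is particular to the 39 was not tested. In 8 genes, input replicate 1 was at least 1.5 times the mean of the other inputs: Syn3, Sv2b, Stx1a, Cplx2, Rims1, Unc13a, Bsn and Pclo. All 5 active zone genes but Rims2 are among them, and none of the 11 genes called higher is.

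**Figure D3:**
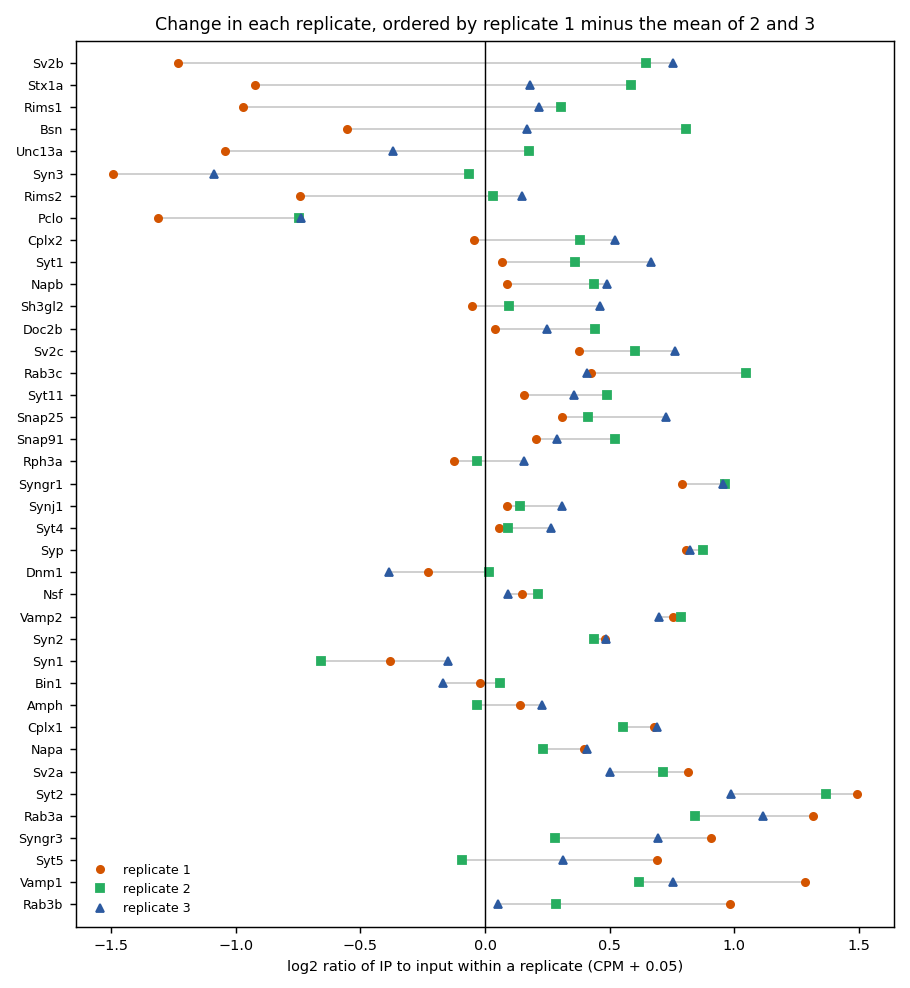
Log2 ratio of IP to input within each replicate for the 39 genes, ordered by replicate 1 minus the mean of replicates 2 and 3. At the top, Sv2b, Stx1a, Rims1 and Bsn have replicate 1 below 0 and the other replicates above 0; lower down, Syp, Vamp2 and Syn2 have all 3 replicates together.

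Markers of neighbouring regions moved with that library. The summed level of 8 markers of cortical excitatory neurons, chosen with earlier results of these data known, was 1927 CPM in input replicate 1 against 520 and 566 CPM in the other inputs, and 908, 765 and 612 CPM in IP replicates 1, 2 and 3. That of 8 striatal markers was 1896 CPM in input replicate 1 against 483 and 804 CPM, and 606, 319 and 396 CPM in IP. Their part in the values of the 8 genes was not tested. Without input replicate 1, the log2 fold change was 0.48 for Bsn (adjusted p = 0.0577) and 0.21 for Rims1 (0.235), and 13 of the 39 genes were called higher and 2 lower (12.3% and 14.3% of all genes). Syt1, Cplx2, Napb and Snap91 were then called higher, and Cplx1 and Rab3c were not.

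The change in IP fell with gene length in the whole table, and most vesicle cycle genes lay above the median for their length. Over all genes tested the median log2 fold change went from 0.27 in the shortest decile of gene lengths to -0.35 in the longest. Of the 39 genes, 32 lay above the median of their own decile. Those below it were Syn1, Stx1a, Dnm1, Rims1, Syn3, Unc13a and Pclo. Across the 39, the log2 fold change correlated with log2 gene length at Pearson r = -0.37 and Spearman rho = -0.27 (n = 39 genes from the same 6 libraries, a description). Without the 2 longest, Pclo and Bsn, these were -0.24 and -0.19, and without input replicate 1 they were -0.25 and -0.14. Over all 18640 genes they were -0.12 and -0.22. Within replicates, Spearman's rho over the 39 was -0.40, 0.03 and -0.19. The 13 shortest and the 13 genes of middle length had medians of 0.34 and 0.33, and the 13 longest, from 8103 to 22457 bases, 0.06. Among the 8 genes in the longest decile, Vamp1, Rab3c, Sv2c and Bsn were above 0, and Rims2, Unc13a, Syn3 and Pclo below.

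**Figure D4:**
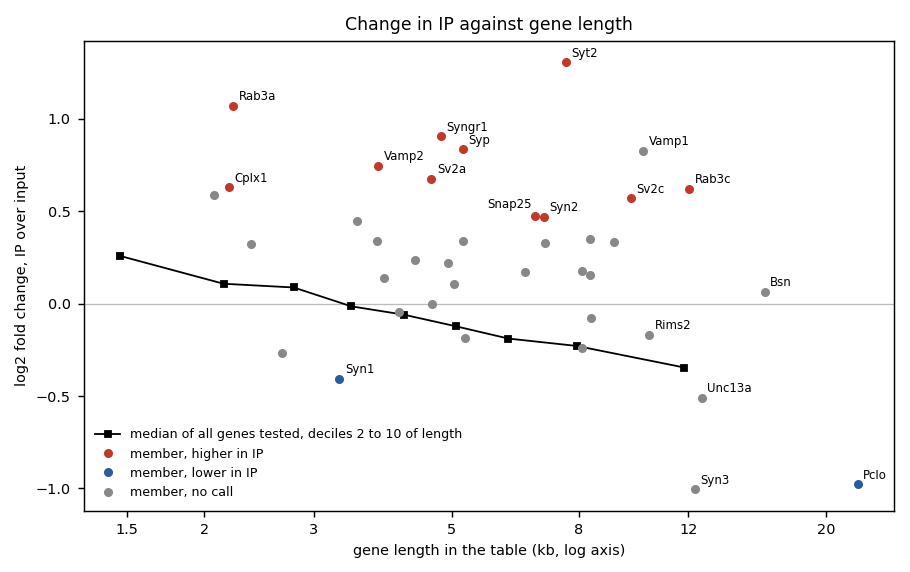
Log2 fold change, IP over input, against the table's gene length in kb on a log axis; circles are the 39 genes coloured by call, squares the medians of all genes tested at the median length of deciles 2 to 10. Most circles lie above the line, which falls to -0.35, while Pclo, Syn3, Unc13a, Syn1 and Stx1a are among those below its level.

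With each library corrected for gene length, 17 of the 39 genes were called higher and 2 lower (15% and 16.2% of all genes). With the correction and the replicate as a block these were 21 and 2 (17.9% and 18.3%). All 11 genes called higher without correction were among the 21. The others were Syngr3, Syt1, Syt11, Vamp1, Cplx2, Nsf, Napa, Napb, Synj1 and Snap91. Pclo kept a log2 fold change of -0.60 (adjusted p = 0.00416) and Syn1 one of -0.41 (adjusted p = 0.027), so both remained lower.

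Across the 18 ratios of related genes, 4 had groups of libraries that stood apart. These were Syn2 to Syn1 and Syt2 to Syt1, higher in IP, and Syt4 to Syt11 and Pclo to Bsn, lower. No ratio could pass the threshold with 3 libraries a group, and the smallest adjusted p was 0.45. The ratio of Dnm1 to its paralog Dnm3 per kb was 16.0 in input and 12.9 in IP, with overlapping groups.

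The other genes of the cycle, together with relatives of cycle genes such as Dnm2 and Sh3glb1, made up a list of 98. Of these, 97 were in the table and 94 were tested. The calls were 31 higher and 16 lower (33% and 17% of those tested, beside the same 12.9% and 17.1% of all genes). The median log2 fold change was 0.18. The vesicle proton pump, which drives transmitter loading, had the largest share of higher calls among the 7 groups of this list: 10 of its 15 genes were called higher and none lower, with a median of 0.52. The higher count was 6 without IP replicate 1, 5 without IP replicate 2 and 6 without input replicate 3, with medians of 0.51, 0.48 and 0.57. Over all genes the higher shares in these settings were 8.22%, 7.5% and 7.48%. Atp6v0b, a subunit of its membrane sector, stood at 198, 221 and 196 CPM in IP against 85.1, 106 and 101 CPM in input. The groups were far apart (log2 1.08 ± 0.13 SE, adjusted p = 0.000927). Ap2s1, for the small subunit of the clathrin adaptor AP-2, stood at 420, 434 and 532 CPM in IP against 130, 220 and 191 CPM in input (log2 1.36 ± 0.20 SE, adjusted p = 0.00215), again without overlap. Atp6v1g2, for a neuronal subunit of the pump, stood at 1194, 1069 and 1324 CPM in IP against 605, 731 and 606 CPM in input (log2 0.89 ± 0.13 SE, adjusted p = 0.00221).

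The 3 genes of that list with the smallest adjusted p among the lower calls belonged to endocytosis. Sh3glb1, a relative of endophilin A1, stood at 30.3, 31.2 and 32.1 CPM in IP against 126, 102 and 98.6 CPM in input (log2 -1.80 ± 0.14 SE, adjusted p = 0.000124). Fcho2, which starts clathrin pits, stood at 10.4, 7.55 and 8.18 CPM in IP against 42.9, 37.5 and 33.3 CPM in input (log2 -2.12 ± 0.18 SE, adjusted p = 0.000196). Dnm2, a paralog of Dnm1, stood at 17.9, 12.7 and 15 CPM in IP against 45.7, 45.3 and 48.1 CPM in input (log2 -1.61 ± 0.16 SE, adjusted p = 0.000382). In each of the 3 genes every input value was more than 2 times every IP value. Vamp3 and Snap23, paralogs of Vamp2 and Snap25, were also lower (log2 -1.82 and -2.48), and were named after their values were seen. The glial markers given above moved in the same direction, and their part here was not tested. The 5 endocytosis, SNARE, active zone, calcium sensor and membrane protein lists held all 16 lower genes, and the Rab3 group and the proton pump held none. Without both libraries of replicate 3 the counts of this list were 1 higher and 5 lower (0.705% and 3.93% of all genes). The higher count was 20 without IP replicate 1 and 18 without IP replicate 2 or input replicate 3. It was 17 without both libraries of replicate 2. Over all genes the higher shares, in the same order, were 8.22%, 7.5%, 7.48% and 7.9%.

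**Figure D5:**
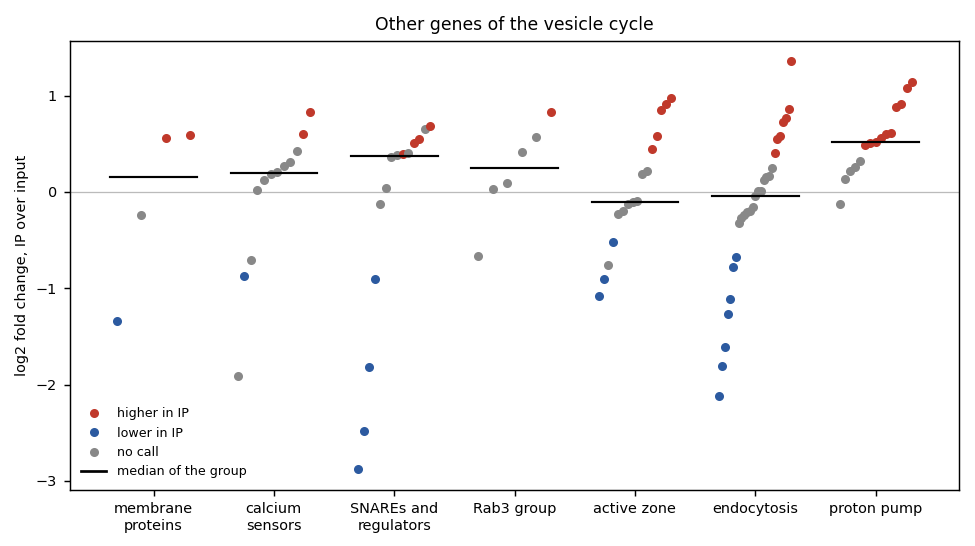
Log2 fold change, IP over input, of the 94 other vesicle cycle genes tested, by group, each point a gene coloured by call and each line the median of its group. The proton pump lies above 0 in 14 of 15 genes, while the endocytosis and SNARE groups hold both called higher and called lower genes, down to values below -2.

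Markers of neurons outside the cycle gave a reference on the same scale. Of 14, 6 were called higher and none lower, against 12.9% and 17.1% of all genes, with a median log2 fold change of 0.56. With the replicate as a block 8 were called higher and 1 lower, against 15.2% and 19.4% of all genes. The lower gene was Map2 (log2 -0.54, adjusted p = 0.0123). The higher count was 4 without IP replicate 1 or input replicate 1 (8.22% and 12.3% of all genes). It was 2 without IP replicate 2, IP replicate 3 or input replicate 3 (7.5%, 7.21% and 7.48% of all genes). Uchl1, the most abundant of them per kb, stood at 1442, 1996 and 1583 CPM in IP against 725, 1325 and 1082 CPM in input (log2 0.68 ± 0.22 SE, adjusted p = 0.0486). Its call was lost without IP replicate 1, 2 or 3 (adjusted p = 0.0565, 0.158 and 0.0997) or input replicate 1 or 3 (0.0635 and 0.125). The medians of the vesicle membrane, SNARE and Rab3 groups (0.63, 0.55 and 0.53) were near that of these markers. Those of the synapsins, calcium sensors and SNARE disassembly genes (-0.41, 0.33 and 0.33) and of the active zone and endocytosis groups (-0.24 and 0.14) were below it. Without input replicate 1 the median of the markers was 0.44. Those of the vesicle membrane, SNARE and Rab3 groups were then 0.66, 0.55 and 0.45. The synapsins, calcium sensors and SNARE disassembly genes were at -0.43, 0.34 and 0.30, and the active zone and endocytosis groups at -0.02 and 0.11. These differences between lists were not tested.

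Some counts may be shared with other genes or lost where genes overlap, since the sources used here do not say whether counting used strand. On the GENCODE M39 annotation of GRCm39, exons of 26 of the 39 genes overlap exons of another gene, in 25 of them only on the opposite strand. The overlap covers over 10% of the exonic length in 6 genes: Syn2 with Timp4, Syn3 with Fbxo7, Syp with Gm14703, Syt4 with Gm26658, Rab3a with Mpv17l2 and Unc13a with Colgalt1. The mean level of Timp4, for a metalloproteinase inhibitor, was 54.1 CPM in input and 10.2 CPM in IP, against 518 and 718 CPM for Syn2. Gm14703 had 0.381 CPM in input and 0 CPM in IP, and Mpv17l2 had 17 and 23.3 CPM, against 803 and 1686 CPM for Rab3a. For Syn3, at 5.31 CPM in input, the partner Fbxo7 was at 55.8 CPM, so the values of Syn3 are uncertain. In this annotation the exonic length was longer than the deposited gene length in 37 of the 39 genes. The median over the 39 was 29.6% longer, and the excess differed between genes, as for Sv2a (9526 against 4636 bases) and Sv2c (9700 in both). Levels, ranks and ratios per kb use the deposited lengths and may change with others.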

How the data were processed

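Poly(A)-selected RNA of 3 IP and 3 input libraries from POA tissue was sequenced as paired ends of 75 bp. The submitters' processing notes name HISAT2, featureCounts and DESeq2 and the mm39 build; versions, annotation and strand of counting are not given in the sources used here. The deposited read counts are whole numbers without normalization. The normalized signal, which the authors made by dividing the counts by 1 factor per library, and the deposited FPKM values were not used in tests. The authors' deposited log2 fold changes and p-values are quoted only where named. Gene positions are the table's own (mm39).

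Sample titles gave the groups and the replicate numbers. Counts were tested with edgeR 4.0.16 in R 4.3.3 (glmQLFit, glmQLFTest, TMM, filterByExpr by group, group as the factor, two-sided, Benjamini-Hochberg over 18640 genes, threshold 0.05). The SE is the log2 fold change divided by the square root of F. Ratios of related genes were tested with exact two-sided permutation. Same-numbered libraries come from 1 pool and are paired: their deviations from the group means correlated at 0.264, 0.144 and 0.102, against -0.22 to 0.0917 between other numbers. The main test and the permutation tests did not use this pairing. With the replicate as a block, Syngr3 and Vamp1 joined the higher calls and Syn1 was no longer called.

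The members, lists and tests were chosen with earlier results of these data known. In each role group, values in every library are given for called genes and the most abundant per kb; other members are given in full where a single library or a ratio bears on them. Of other cycle genes, the 3 smallest adjusted p in each direction and the paralogs are named, except an item that is not reported here. Alternatives were RLE or upper-quartile factors, library totals alone, DESeq2 1.42.0, no filter beyond a count above 0, a minimum of 1 CPM in every library of either group, the replicate as a block, a correction for gene length by a spline of 4 degrees of freedom with and without the block, and leaving out each library or replicate.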

Additional observations from a re-analysis of the deposited data

How the results depend on the processing

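All 18 other settings were run for the 39 genes, which gives 702 values: 572 kept direction and side of the threshold, 50 lost a call, 47 gained a call and 34 changed sign, 1 of which also gained a call (Sv2b without replicate 1). No gene called with all libraries changed sign. The count of 11 higher genes became 17 with DESeq2, 17 with the length correction and 21 with that correction and the replicate block; the pairing alone gave 13. The count of 2 lower genes became 1 with RLE factors, upper-quartile factors, no low-count filter or the replicate block. Over all genes the lower shares in these settings were 16.7%, 17.4%, 11.4% and 19.4%. With single libraries or whole replicates left out, the higher count ran from 1 to 17 and the lower from 0 to 2; for the other cycle genes these ranges were 1 to 34 and 5 to 16, and for all genes 133 to 2630 and 742 to 3080. The lowest counts of these 6 ranges, apart from that of 0 lower genes, which leaving out IP replicate 2 or 3 gave too, came without both libraries of replicate 3.

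Signs changed in 8 genes. The log2 fold change of Sv2b was 0.0754 with the replicate block, 0.15 with the length correction and 0.25 with both. Rph3a was at 0.0238 with DESeq2, 0.0238 with RLE factors, 0.00611 without the filter, 0.0581 with the length correction and 0.061 with correction and block. Rims1 was at 0.0297 with correction and block, Rims2 at 0.0519 with the correction and 0.0329 with both, and Bsn at -0.0403 with library totals. With libraries left out, the log2 fold change ran from -0.38 to 0.70 for Sv2b, -0.51 to 0.50 for Stx1a, -0.0122 to 0.70 for Cplx2, -0.0777 to 0.0628 for Rph3a, -0.43 to 0.26 for Rims1, -0.32 to 0.0863 for Rims2, -0.21 to 0.49 for Bsn and -0.11 to 0.0521 for Bin1. The causes were not tested. Over the 18 ratios of related genes, 126 values with a library left out or by replicate block changed sign in 12 cases and none moved by more than the spread between libraries; the smallest p the paired test of a ratio allows is 0.25. Spearman's rho with gene length ran from -0.32 to -0.14 with single libraries left out and was -0.27 with the block. Depth limits the scarcest gene most, Syn3, which had over 100 counts in each library.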
